A study of Rattus norvegicus with 24 samples.

Results

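The rat miRs rno-miR-103-3p, rno-miR-107-3p, rno-miR-423-3p and rno-miR-423-5p (hereafter without the prefix) were followed in INS1 cells exposed to cytokines, to Givinostat or to both. They are 4 of the 758 rat miRs on the array and were chosen by name. miR-103 and miR-423 served as reference miRs for part of the qRT-PCR of the study. Both arms of miR-423 were taken because the arm used was not stated. miR-107-3p was added because it is the near twin of miR-103-3p. INS1 is a rat insulinoma line, a tumour line that secretes insulin and stands in for the pancreatic β-cell. All cells were cultured for 48 h beforehand. Groups named Cyt received 150 pg/ml IL-1β with 0.1 ng/ml IFN-γ, groups named Giv_Ctrl received 125 nM Givinostat, an inhibitor of lysine deacetylases, groups named Giv_Cyt received the same Givinostat 1 h ahead of the same cytokines, and groups named Ctrl received neither. Each of the 4 treatments was read after 6 h and after 24 h on 3 arrays, 24 arrays in all. The labels describe the 3 arrays of a group as technical replicates and the paper calls them replicates, so the p-values measure the spread between these samples, which may be technical.

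A reference miR is a miR whose level is taken as constant, so that the amounts of other miRs can be expressed relative to it. miRs are short RNAs that lower the output of mRNAs with sites complementary to their seed, bases 2 to 8 from the 5′ end. miR-103 and miR-107 are made from introns of the pantothenate kinase genes, whose enzymes start the synthesis of coenzyme A, and they are known as regulators of insulin sensitivity and of the miR-processing enzyme Dicer. miR-423 yields a mature miR from each arm of its hairpin and is often used as a control in human samples.

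The mature sequences of 3 of the members were found in RefSeq (build GRCr8) and are shown because miR-103-3p and miR-107-3p differ by so little that an array may not separate them. Capitals mark the seed.
miR-103-3p: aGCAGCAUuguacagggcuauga
miR-107-3p: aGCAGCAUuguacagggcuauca
miR-423-5p: uGAGGGGCagagagcgagacuuuu
Both miR-103-3p and miR-107-3p are 23 bases long and carry the seed GCAGCAU, which no other mature rat miR of the RefSeq table has. They differ at 1 position, G22C, counted from the 5′ end with the base of miR-103-3p first. In GRCr8 the mature miR-103-3p shown lies at chr3:138963278-138963300 on the plus strand, in the hairpin Mir103a2 within the gene body of Pank2, and a further hairpin, Mir103a1 at chr10:20748474-20748559, lies within Pank3. miR-107-3p lies at chr1:241750431-241750453 on the minus strand within Pank1. miR-423-5p lies at chr10:62412317-62412340 on the minus strand within Nsrp1, which encodes a splicing regulator. The gene table gives gene bodies and not exons.

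On the array each miR was read by 16 spots, and the probes of the members are shown because their length and overlap decide what a signal can mean. Each is written 5′ to 3′, and capitals mark the bases that a longer probe has beyond the shortest.
miR-103-3p, 17 bases: tcatagccctgtacaat
miR-103-3p, 18 bases: tcatagccctgtacaatG
miR-107-3p, 19 bases: tgatagccctgtacaatgc
miR-107-3p, 20 bases: tgatagccctgtacaatgcT
miR-423-3p, 11 bases: actgaggggcc
miR-423-3p, 12 bases: actgaggggccT
miR-423-3p, 13 bases: actgaggggccTC
miR-423-3p, 14 bases: actgaggggccTCA
miR-423-5p, 16 bases: aaaagtctcgctctct
miR-423-5p, 17 bases: aaaagtctcgctctctG
Each probe of miR-103-3p has 1 mismatch to miR-107-3p and each probe of miR-107-3p has 1 mismatch to miR-103-3p, near the end of the probe. How far each set also read the other miR was not tested, so the values of this pair are uncertain as measures of separate miRs. The files place the probes of miR-103-3p at 2 positions of rn4, on chromosomes 3 and 10, so RNA from the 2 hairpins was summed. Each probe was printed on 8 spots, except those of miR-423-3p, which were printed on 4 spots each.

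The arrays carried 117 miRs detected on all 24 arrays and 534 detected on none, where detected means that at least 8 of the 16 spots were marked as well above background by the scanner software. Of the 5 pancreatic endocrine markers, 4 were detected on all arrays and miR-184 on none, the liver marker and the 4 blood and immune markers were detected on none, and of the 3 muscle markers miR-206-3p was detected on all arrays and miR-1-3p on 3. The brightness of an array before normalization is given as the 75th percentile of the mean background-subtracted intensity over the 117 miRs detected on all arrays. It ranged from 271 to 1003. It was 1003, 742 and 596 in 24h_Cyt against 347, 271 and 347 in 24h_Ctrl, and these groups shared no slide.

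miR-103-3p and miR-107-3p were read far above background in every sample, and neither arm of miR-423 was. For miR-103-3p and for miR-107-3p all 384 spots over the 24 arrays were marked as well above background. For miR-423-3p 0 of 384 spots were marked. For miR-423-5p 31 of 384 spots were marked, all of them from the 17-base probe, and the miR reached the 8 spots needed for detection on 1 array, replicate 1 of 24h_Cyt. In 24h_Cyt 8, 5 and 5 of its spots were marked, in 24h_Ctrl 2, 3 and 0, and in 24h_Giv_Cyt 2, 2 and 1. On the other groups 0 or 1 spot was marked per array.

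The same division was seen in the background-subtracted intensities, on a linear scale and before normalization between arrays. The 18-base probe of miR-103-3p gave 672 to 2725 over the 24 arrays (median 1212) and its 17-base probe 301 to 802 (median 437). The 20-base probe of miR-107-3p gave 445 to 1602 (median 686) and its 19-base probe 127 to 404 (median 195). These values lie far over the negative control spots, whose mean on an array was 1.71 to 5.37 with an SD between spots of 3.32 to 7.43. The 4 probes of miR-423-3p gave -6.19 to 4.14, with medians of -1.66, -2.99, -0.11 and -0.71 from the shortest to the longest. These medians lie below the lowest array mean of the negative control spots, so the probes were at background. The 16-base probe of miR-423-5p gave -2.91 to 2.76 and was at background as well. Its 17-base probe gave 10.1 to 35.9 with a median of 15.6, a weak signal over the negative controls.

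**Figure D1:**
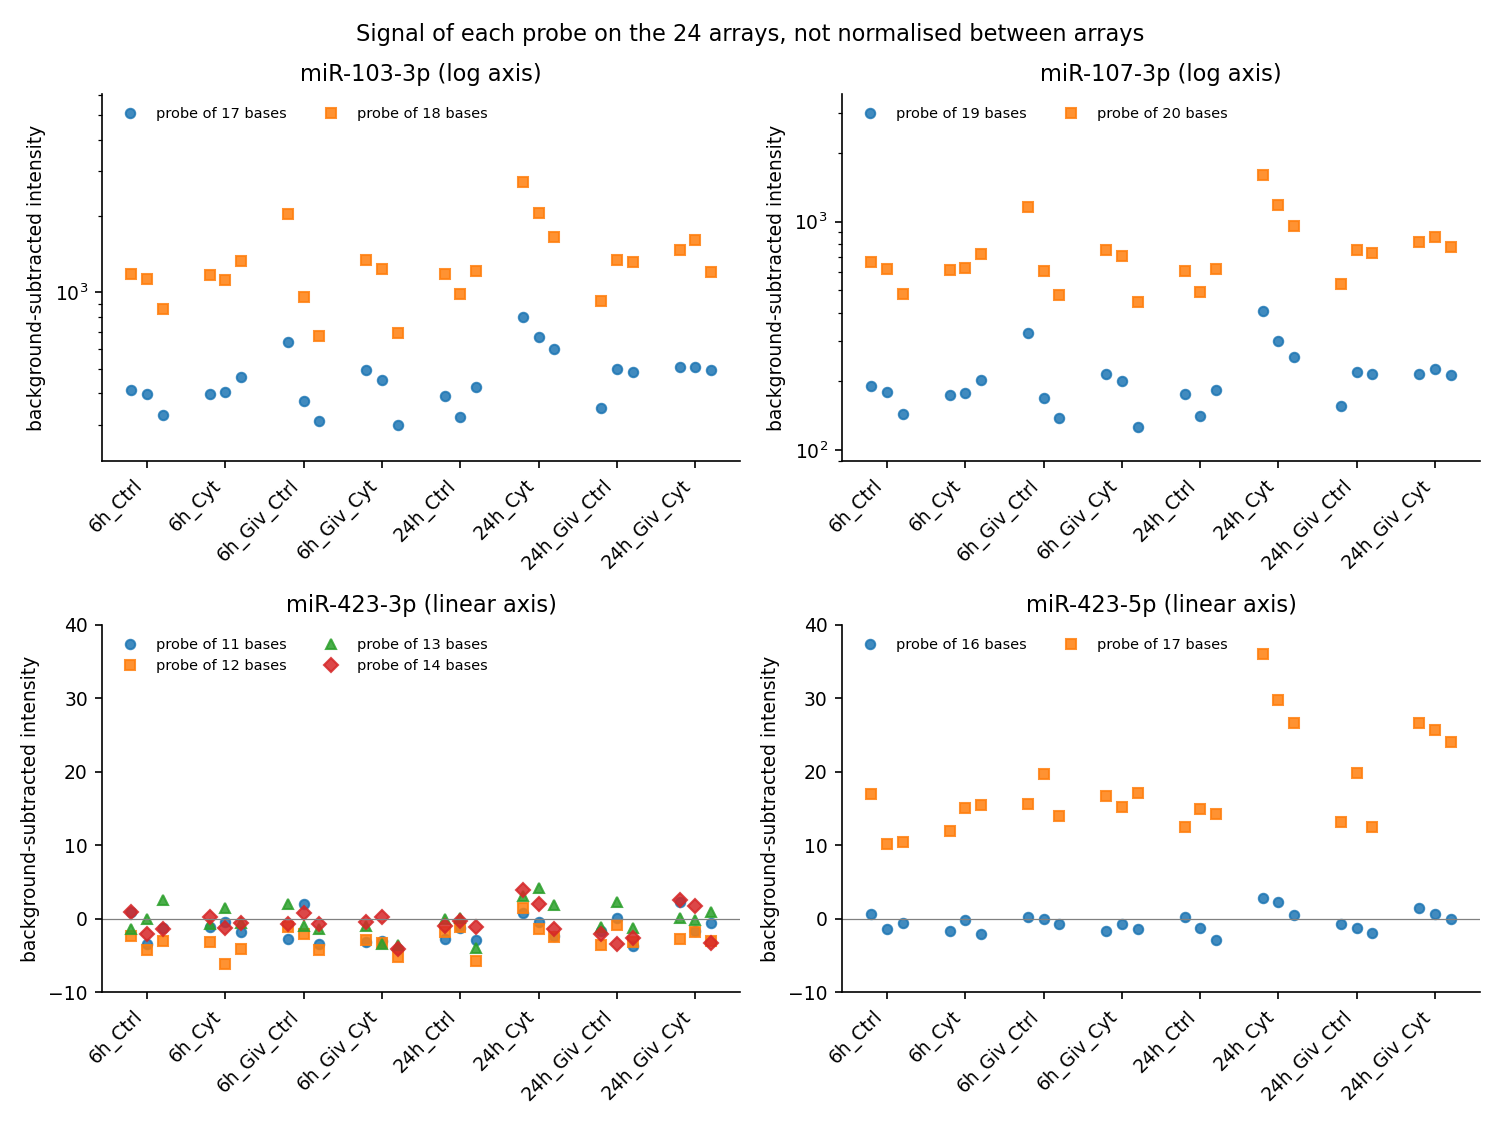
Background-subtracted intensity of each probe of the 4 miRs on each of the 24 arrays, by group; points are arrays, the axes of miR-103-3p and miR-107-3p are logarithmic and those of miR-423 are linear. The probes of miR-103-3p and miR-107-3p sit between 127 and 2725, the 17-base probe of miR-423-5p between 10.1 and 35.9, and the other miR-423 probes between -6.19 and 4.14.

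That 17-base probe was brighter on the arrays of cytokine-treated cells at 24 h. Its intensity was 30.8 ± 4.75 (SD, n = 3) in 24h_Cyt and 13.9 ± 1.26 in 24h_Ctrl, and 25.4 ± 1.29 in 24h_Giv_Cyt and 15.1 ± 4.08 in 24h_Giv_Ctrl. At 6 h it was 12.5 ± 3.86 in Ctrl, 14.2 ± 1.99 in Cyt, 16.4 ± 2.95 in Giv_Ctrl and 16.3 ± 0.988 in Giv_Cyt. These intensities are not normalized, and the 24h_Cyt arrays were brighter as a whole: the background-subtracted intensity of miR-103-3p was 1417 ± 323 there against 754 ± 87.2 in 24h_Ctrl, and that of miR-107-3p was 784 ± 201 against 370 ± 47.0. In 24h_Giv_Cyt against 24h_Giv_Ctrl it was 968 ± 108 against 820 ± 158 for miR-103-3p and 517 ± 23.5 against 435 ± 77.7 for miR-107-3p. After quantile normalization the 17-base probe of miR-423-5p differed by a log2FC of -0.030 between 24h_Cyt and 24h_Ctrl. Between 24h_Giv_Cyt and 24h_Giv_Ctrl it differed by -0.026. The normalized signal had no background correction and is mostly background at this level, which makes differences smaller. The part of array brightness in the unnormalized differences was not tested.

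After quantile normalization, the log2 level of miR-103-3p stayed between 9.40 and 9.87 over the 24 arrays, a range of 0.47 or 1.39-fold. At 6 h its values for replicates 1 to 3 were 9.56, 9.82 and 9.77 in Ctrl, 9.73, 9.56 and 9.81 in Cyt, 9.69, 9.47 and 9.46 in Giv_Ctrl, and 9.87, 9.80 and 9.43 in Giv_Cyt. At 24 h they were 9.83, 9.67 and 9.85 in Ctrl, 9.62, 9.52 and 9.65 in Cyt, 9.75, 9.83 and 9.86 in Giv_Ctrl, and 9.40, 9.69 and 9.72 in Giv_Cyt. At 6 h the 4 groups overlapped, and at 24 h all arrays of Cyt lay below all arrays of Ctrl. The group means ran from 9.54 ± 0.13 in 6h_Giv_Ctrl through 24h_Cyt (9.60 ± 0.072), 24h_Giv_Cyt (9.60 ± 0.18), 6h_Cyt (9.70 ± 0.13), 6h_Giv_Cyt (9.70 ± 0.24), 6h_Ctrl (9.72 ± 0.14) and 24h_Ctrl (9.79 ± 0.098) to 24h_Giv_Ctrl (9.82 ± 0.055; all SD, n = 3). Neighbours in this order overlapped throughout, and the lowest and highest means were 0.28 apart.

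miR-107-3p also varied little, with log2 levels between 8.51 and 9.06 over the 24 arrays, a range of 0.55 or 1.47-fold. At 6 h its values were 8.78, 9.03 and 8.85 in Ctrl, 8.76, 8.75 and 8.87 in Cyt, 9.06, 8.75 and 8.77 in Giv_Ctrl, and 8.91, 8.79 and 8.60 in Giv_Cyt. At 24 h they were 8.97, 8.88 and 8.87 in Ctrl, 8.83, 8.67 and 8.71 in Cyt, 8.83, 8.80 and 9.04 in Giv_Ctrl, and 8.51, 8.68 and 8.71 in Giv_Cyt. As for miR-103-3p, the means of both 24 h groups with cytokines lay below those of both 24 h groups without them. The group means ran from 8.63 ± 0.11 in 24h_Giv_Cyt through 24h_Cyt (8.74 ± 0.086), 6h_Giv_Cyt (8.77 ± 0.16), 6h_Cyt (8.79 ± 0.065), 6h_Giv_Ctrl (8.86 ± 0.18), 6h_Ctrl (8.89 ± 0.13) and 24h_Giv_Ctrl (8.89 ± 0.13) to 24h_Ctrl (8.91 ± 0.057). Neighbours again overlapped, and the extreme means were 0.28 apart.

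The normalized signals of miR-423 were close to constant, at the level of spots without a detected miR. miR-423-3p lay between 5.42 and 5.52 on the log2 scale over the 24 arrays, with 5.45, 5.46 and 5.43 in 24h_Ctrl and 5.52, 5.51 and 5.46 in 24h_Cyt. miR-423-5p lay between 5.68 and 5.80, with 5.76, 5.75 and 5.73 in 24h_Ctrl and 5.79, 5.74 and 5.77 in 24h_Cyt. Without background correction such a signal is mostly background, so these values are measured signals and no fold is read from them.

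**Figure D2:**
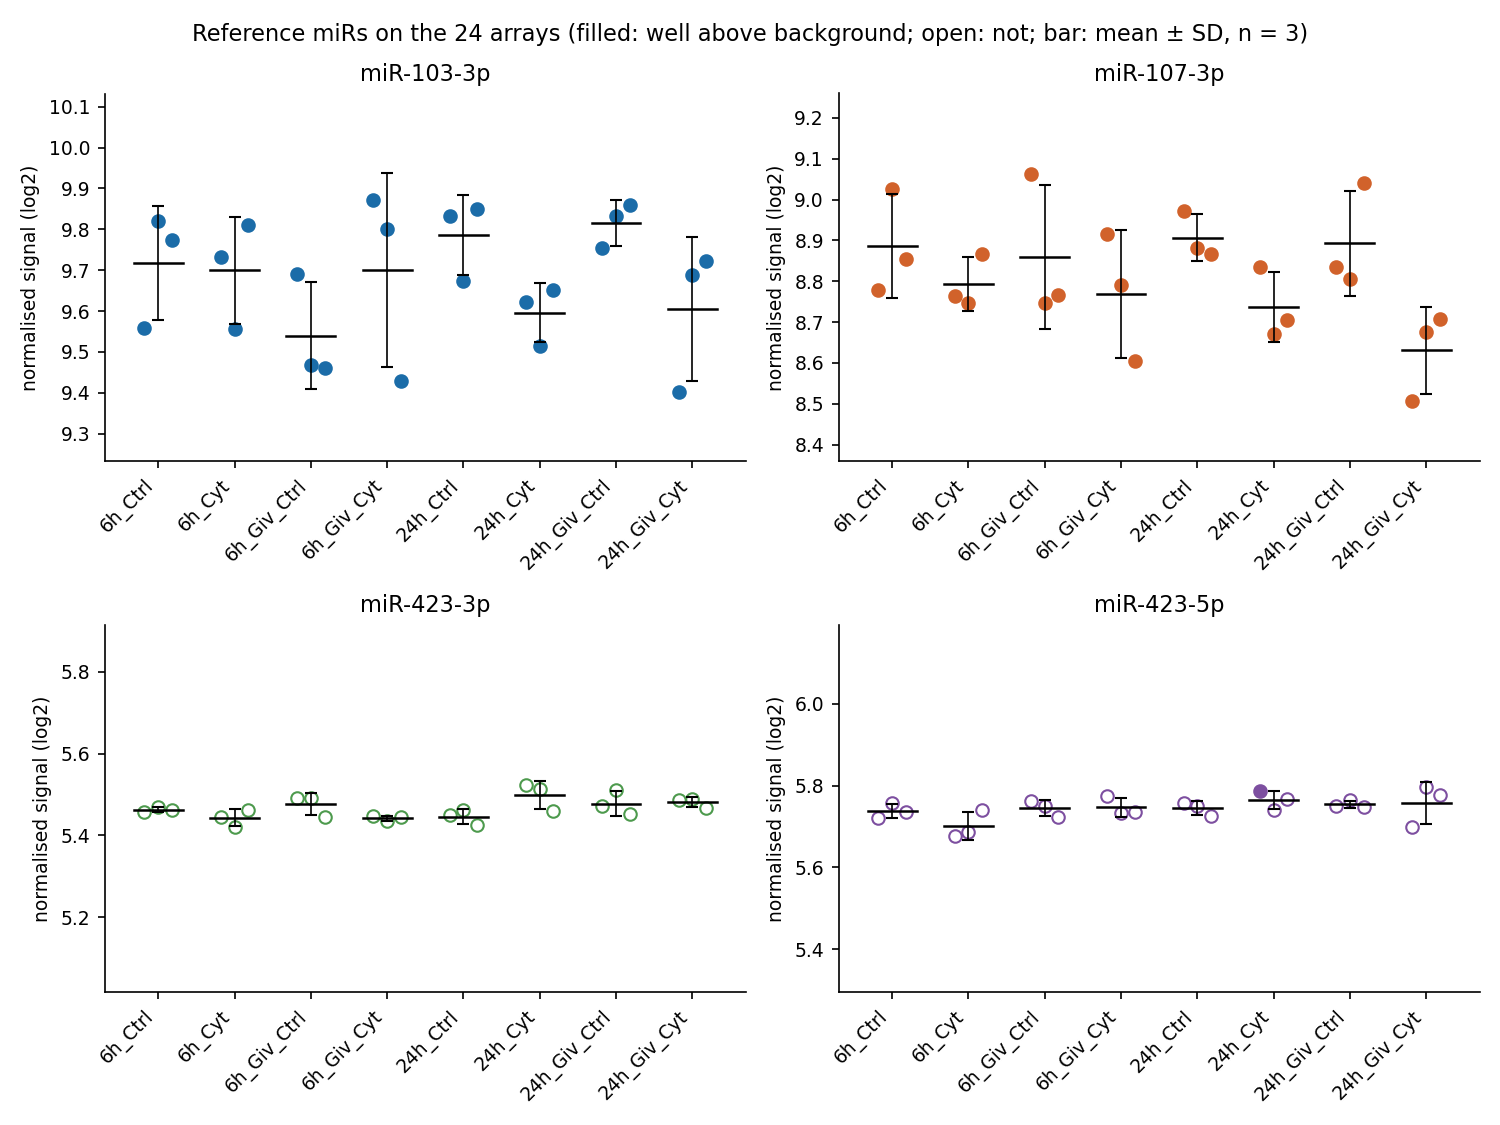
Quantile-normalized log2 signal of each of the 4 miRs on the 24 arrays, by treatment and time; points are arrays, filled where the miR was detected, and bars are the mean ± SD of 3 arrays. miR-103-3p lies between 9.40 and 9.87 and miR-107-3p between 8.51 and 9.06, with the means of the 24 h groups that received cytokines below those of the 24 h groups without them, while both arms of miR-423 form a narrow band between 5.42 and 5.80.

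Whether the references moved under each treatment was asked in the 12 comparisons of the study with limma, fitted to all 758 miRs, where a call needed an adjusted p below 0.05 and a log2FC more than 0.1375 (1.1-fold) away from 0. By limma 0 of the 4 members were called in each comparison and in each of the 3 interaction terms. With limma's pooled correlation over spots 0 were called too. That fit takes spots of different probes as replicates, so level differences between probes add to its spread. Of the 48 member values in the 12 comparisons, 5 had an unadjusted p below 0.05. There was 1 each for miR-103-3p, miR-107-3p and miR-423-5p and 2 for miR-423-3p, and the miR-423 signals were near background. Of all 758 miRs, 24 to 180 per comparison had such a p, so the 5 are not read as a result about the members.

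Under cytokines for 24 h without Givinostat, the values of miR-103-3p and miR-107-3p lay below 0 and did not pass the test. miR-103-3p had a log2FC of -0.19 in 24h_Cyt vs 24h_Ctrl (SE 0.11, 95% interval -0.42 to 0.043, limma adjusted p = 0.303). miR-107-3p had a log2FC of -0.17 (SE 0.094, interval -0.37 to 0.028, adjusted p = 0.285). In this comparison 0 of the 4 members were called, where 4.09% of the 758 miRs were. The 3 arrays of 24h_Cyt lay below the 3 of 24h_Ctrl for both miRs, and such a separation, in either direction, was seen for 36.7% of all miRs. As 24h_Cyt and 24h_Ctrl shared no slide, a fit with slide as a fixed block compares them only through other groups. It gave a log2FC of -0.19 for miR-103-3p and -0.33 for miR-107-3p. The part of the brighter arrays of 24h_Cyt in these values was not tested. The measured signal of miR-423-3p differed by 0.053 (interval 0.014 to 0.092, unadjusted p = 0.0109, adjusted p = 0.100) and that of miR-423-5p by 0.020 (interval -0.028 to 0.068, adjusted p = 0.627), with neither well above background in both groups.

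With Givinostat present, the values of the pair under cytokines for 24 h were again below 0. In 24h_Giv_Cyt vs 24h_Giv_Ctrl, miR-107-3p had a log2FC of -0.26 (SE 0.094, interval -0.46 to -0.065), with an unadjusted p of 0.0120 and a limma adjusted p of 0.247. miR-103-3p had a log2FC of -0.21 (interval -0.44 to 0.021, adjusted p = 0.442), which was -0.11 without replicate 1 of 24h_Giv_Cyt. Of the 4 members 0 were called against 0.528% of all miRs, and the arrays of the groups did not overlap for miR-103-3p and miR-107-3p, as for 23.6% of all miRs. Within the slides that held both groups, miR-107-3p differed by -0.21 on slide 3 (1 array against 2) and -0.24 on slide 4 (2 arrays against 1), and miR-103-3p by -0.12 and -0.21. The brightness of the arrays before normalization was 571, 542 and 487 in 24h_Giv_Cyt and 303, 452 and 435 in 24h_Giv_Ctrl, and its part was not tested. The signals of miR-423-3p and miR-423-5p differed by 0.0029 and 0.0038.

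In the other comparisons at 24 h the values of the pair lay closer to 0. Adding Givinostat to cytokines (24h_Giv_Cyt vs 24h_Cyt) gave miR-103-3p a log2FC of 0.0079 (interval -0.22 to 0.24, limma adjusted p = 0.991) and miR-107-3p one of -0.11 (interval -0.30 to 0.091, adjusted p = 0.967), with 0 members called against 0.132% of all miRs. Givinostat without cytokines (24h_Giv_Ctrl vs 24h_Ctrl) gave 0.030 (interval -0.20 to 0.26) and -0.013 (interval -0.21 to 0.18), and 0% of all miRs were called. The difference between the cytokine effects with and without Givinostat at 24 h was -0.022 for miR-103-3p (interval -0.35 to 0.31) and -0.093 for miR-107-3p. These intervals still allow changes of the size seen for cytokines.

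At 6 h no comparison called any of the 758 miRs, 0% in each, and 24 to 34 miRs had an unadjusted p below 0.05. Cytokines (6h_Cyt vs 6h_Ctrl) gave miR-103-3p a log2FC of -0.018 (interval -0.25 to 0.21) and miR-107-3p one of -0.093 (interval -0.29 to 0.10). Givinostat without cytokines (6h_Giv_Ctrl vs 6h_Ctrl) gave -0.18 (interval -0.41 to 0.054, limma adjusted p = 0.981) and -0.028. Cytokines in the presence of Givinostat (6h_Giv_Cyt vs 6h_Giv_Ctrl) gave 0.16 (interval -0.071 to 0.39) and -0.089, and adding Givinostat to cytokines (6h_Giv_Cyt vs 6h_Cyt) gave 0.00062 (interval -0.23 to 0.23) and -0.023. The cytokine effect at 24 h less that at 6 h was -0.17 for miR-103-3p (interval -0.50 to 0.16, adjusted p = 0.819) and -0.076 for miR-107-3p (adjusted p = 0.917), with 0 members called where 0.528% of all miRs were.

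Between 6 h and 24 h the value farthest from 0 was that of miR-103-3p under Givinostat without cytokines. In 24h_Giv_Ctrl vs 6h_Giv_Ctrl its log2FC was 0.28 (SE 0.11, interval 0.044 to 0.51, unadjusted p = 0.0224, limma adjusted p = 0.958), with all 3 arrays at 24 h above all 3 at 6 h, as for 5.8% of all miRs, and 0% of miRs called. With slide as a fixed block the log2FC was 0.16, a value that rests on other groups because these groups shared no slide. miR-107-3p differed by 0.034 in the same comparison. In untreated cells the values were 0.068 and 0.020, and 0% of miRs were called. Under cytokines (24h_Cyt vs 6h_Cyt) they were -0.10 and -0.056 with 0 members called against 0.792%, and under both agents -0.096 and -0.14 with 0 called against 0.396%. The signal of miR-423-3p differed by 0.056 between 24h_Cyt and 6h_Cyt (unadjusted p = 0.00796, adjusted p = 0.172) and that of miR-423-5p by 0.064 (unadjusted p = 0.0120, adjusted p = 0.189). The groups did not overlap for miR-423-5p in 24h_Cyt vs 6h_Cyt, as for 21.8% of all miRs, nor for miR-423-3p in 24h_Giv_Cyt vs 6h_Giv_Cyt, as for 14.1%.

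How closely the design bounded a change is given by the 95% intervals. For miR-103-3p the interval lay within 0.5 log2 units of 0 in 11 of the 12 comparisons, and for miR-107-3p in all 12. For the median miR detected on all arrays the interval lay within 0.5 of 0 in 10 of 12.

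**Figure D3:**
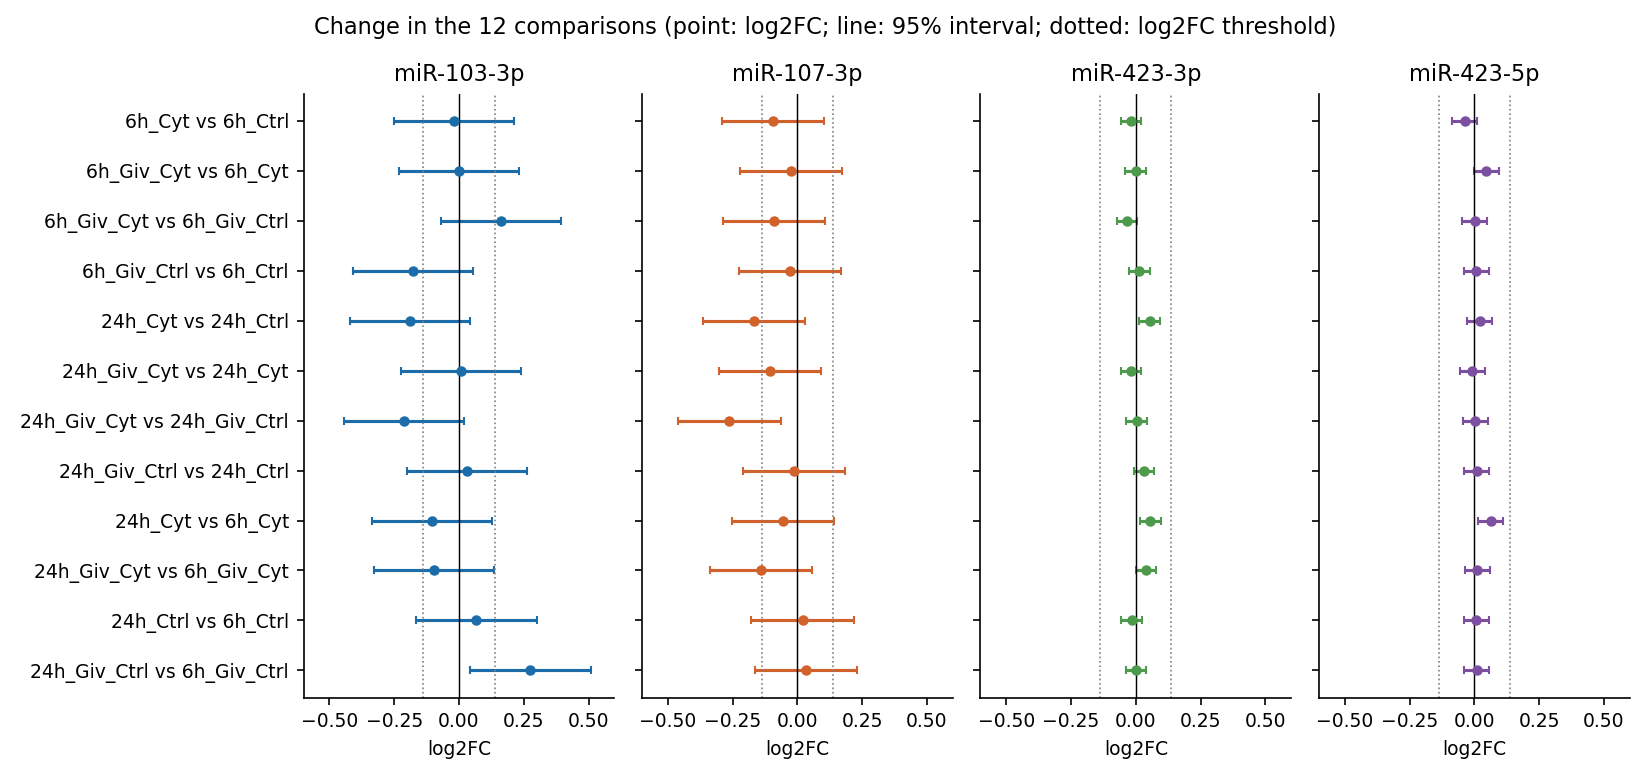
log2FC with its 95% interval from limma for the 4 miRs in the 12 comparisons; the solid line marks 0 and the dotted lines mark 0.1375 to either side. The values of miR-103-3p range from -0.21 to 0.28 and those of miR-107-3p from -0.26 to 0.034, and the miR-423 signals lie near 0 with narrow intervals.

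The probes of a miR did not move by the same amount. In 24h_Cyt vs 24h_Ctrl the 17-base probe of miR-103-3p had a log2FC of -0.29 (limma adjusted p = 0.0753) and the 18-base probe one of -0.086 (adjusted p = 0.758). For miR-107-3p the 19-base probe had -0.28 (adjusted p = 0.188) and the 20-base probe -0.058 (adjusted p = 0.661). In both miRs it was thus the shorter probe that lay lower. In 24h_Giv_Cyt vs 24h_Giv_Ctrl the probes of miR-103-3p gave -0.20 and -0.22, and those of miR-107-3p gave -0.36 and -0.16. The 16-base probe of miR-423-5p, at background, differed by 0.070 in 24h_Cyt vs 24h_Ctrl (adjusted p = 0.0493), below the log2FC threshold. The difference between probes was not tested.

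For this pair the sign under cytokines at 24 h turned only where the arrays were not scaled to each other, and there the median detected miR lay above 0 as well. Without normalization between arrays, miR-103-3p was higher in 24h_Cyt than in 24h_Ctrl by a log2FC of 0.83 (limma adjusted p = 0.0170) and miR-107-3p by 0.91 (adjusted p = 0.00493), and the median log2FC of the 117 miRs detected on all arrays was 0.83 as well, against -0.055 after quantile normalization. Relative to that median, miR-103-3p and miR-107-3p thus moved little without normalization. With the background-subtracted intensity divided by its 75th percentile over the 117 detected miRs, miR-103-3p had a log2FC of -0.36 and was called lower (adjusted p = 0.0418), and miR-107-3p had -0.19 (adjusted p = 0.231), with a median over detected miRs of -0.11. With the total signal per miR scaled likewise they had -0.38 (adjusted p = 0.0588) and -0.21 (adjusted p = 0.230). In 24h_Giv_Cyt vs 24h_Giv_Ctrl without normalization miR-103-3p had 0.23 and miR-107-3p 0.22, below the median of 0.43 for the detected miRs.

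**Figure D4:**
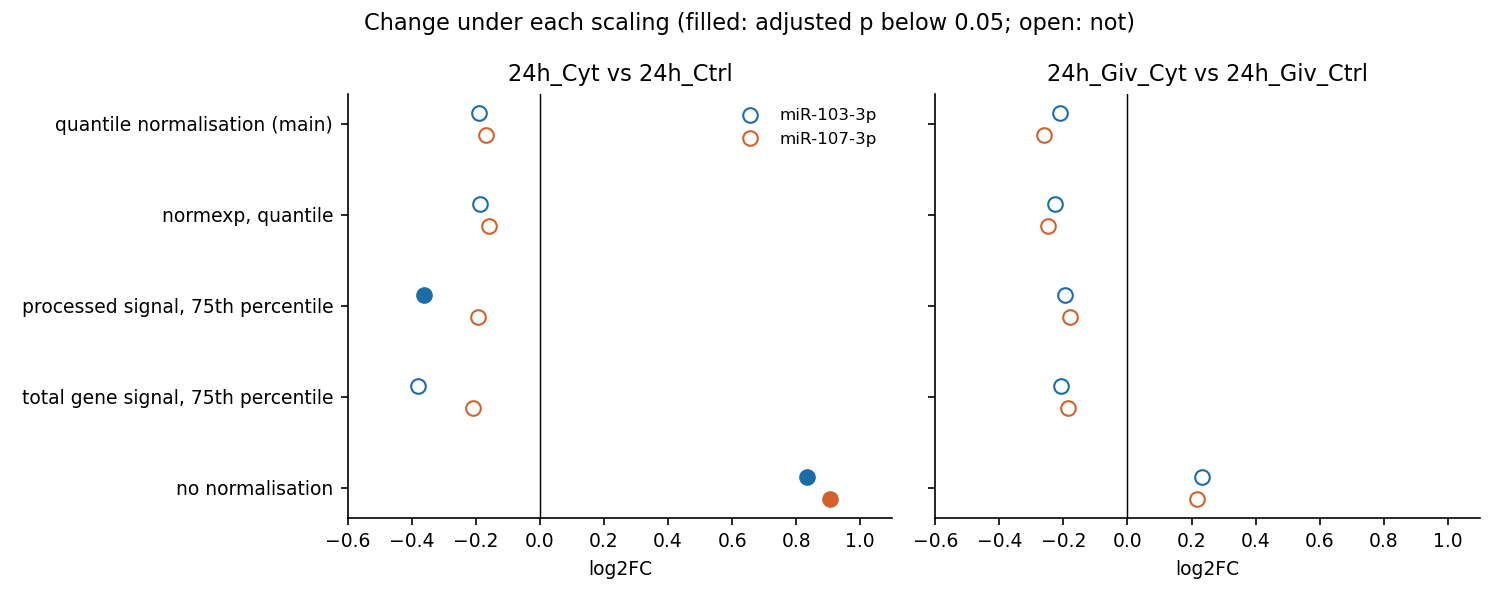
log2FC of miR-103-3p and miR-107-3p in the cytokine comparisons at 24 h under 5 ways of scaling the arrays; filled points have a limma adjusted p below 0.05 and open points do not. In 24h_Cyt vs 24h_Ctrl the scaled values are below 0, with miR-103-3p filled for the processed signal (-0.36), and the values without normalization (0.83 and 0.91) are filled and above 0.

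As references within the detected set, miR-103-3p and miR-107-3p varied less than the median miR. The SD over the 24 arrays was 0.149 for miR-103-3p, rank 30 of 117 from the steadiest, and 0.135 for miR-107-3p, rank 19, against a median of 0.181. Within groups the SD was 0.141 (rank 30) and 0.120 (rank 22) against a median of 0.177. By the mean SD of the log2 ratio to each other detected miR, they ranked 17 and 15. This rank was 42 and 25 with normexp background correction, 45 and 27 without normalization, and 17 and 59 without spots marked as outliers, a setting chosen after seeing the data. The rank by SD depended on the processing too: it was 89 for miR-103-3p and 76 for miR-107-3p with the processed signal scaled over all miRs, past the middle of the 117, and 59 and 53 without normalization, and without spots marked as outliers it was 27 and 53. The SD was 0.0270 for miR-423-3p and 0.0295 for miR-423-5p. The median SD of the miRs detected on no array was 0.0304, so the low spread of miR-423 was close to that of miRs without a detected signal.

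**Figure D5:**
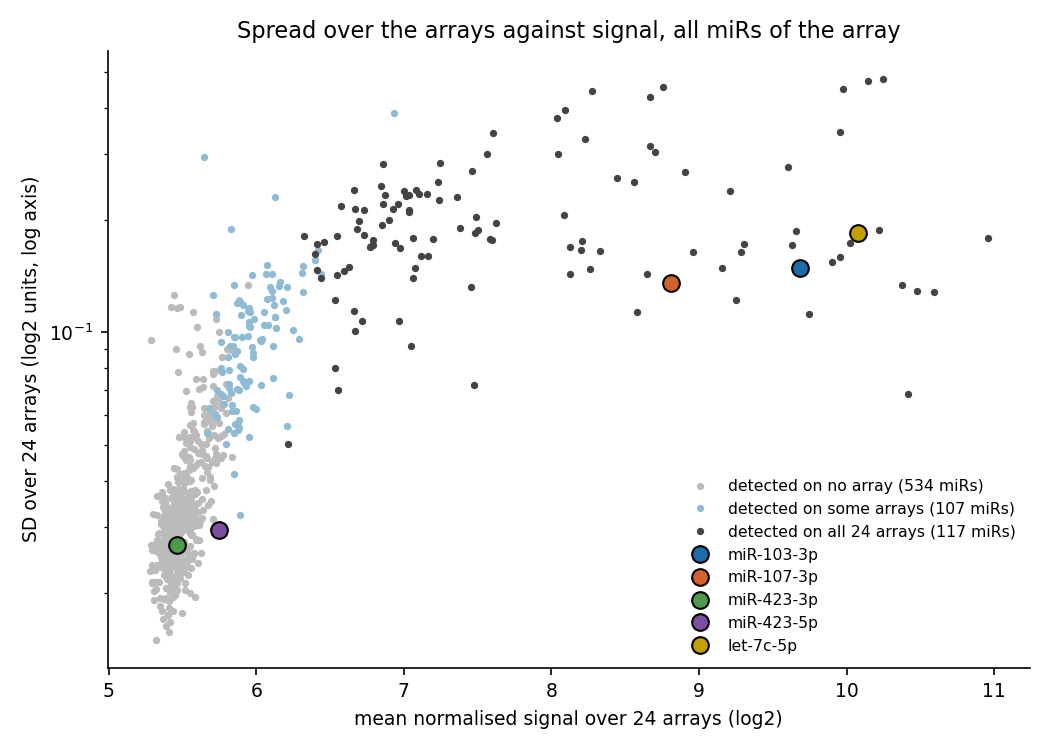
SD over the 24 arrays of the quantile-normalized log2 signal (log axis) against the mean signal for all miRs of the array, split by detection, with the 4 members and let-7c-5p marked. miR-103-3p (0.149) and miR-107-3p (0.135) lie below the median of the detected miRs (0.181), and both arms of miR-423 lie in the band of undetected miRs.

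The difference between miR-103-3p and miR-107-3p on the same array describes how far the pair moved together. It was 0.87 ± 0.11 on the log2 scale over the 24 arrays, from 0.63 to 1.03. In 6h_Giv_Ctrl it was 0.68 ± 0.047, with all 3 arrays between 0.63 and 0.72 and all arrays of the other groups at 0.78 or more. On unnormalized background-subtracted intensities 6h_Giv_Ctrl was again lowest, at 0.77 ± 0.086, but its arrays (0.68 to 0.85) overlapped those of 24h_Cyt (from 0.81), 6h_Giv_Cyt (from 0.80) and 24h_Giv_Cyt (from 0.78). The contrast was noticed in the values and has no test.

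Among the miRs detected on all arrays, miR-24-3p followed both members most closely by the SD of the log2 ratio over the 24 arrays. It was 0.0753 for miR-103-3p, followed by let-7a-5p (0.0850), and 0.0968 for miR-107-3p, followed by miR-200c-3p (0.0983). miR-107-3p itself was at rank 10 for miR-103-3p (0.110), and miR-103-3p at rank 8 for miR-107-3p. For miR-423-3p the lowest values were those of miR-483-3p (0.0633) and let-7f-5p (0.0694), and for miR-423-5p they were 0.0572 and 0.0664 for the same miRs. Both arms of miR-423 were close to constant near background. These values therefore mainly give the spread of the partner itself and do not show that it followed miR-423.

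Other miRs often used as references were compared in the same fit. Of 12 such miRs, 8 were detected on all arrays and miR-191a-5p on none. miR-26a-5p had the lowest SD, 0.112 (rank 10 of 117), and let-7c-5p, the other internal control of the study, had the highest, 0.185 (rank 62). The paper states that let-7c was tested for stability under cytokines, and describes it as stable in rat islets at 24 h. In 24h_Cyt vs 24h_Ctrl 2 of the 12 were called, both lower, where 4.09% of the 758 miRs were called. Of these, let-7c-5p had a log2FC of -0.38 (SE 0.11, limma adjusted p = 0.0449) and miR-93-5p, a product of the miR-106b/25 cluster, one of -0.40 (SE 0.070, adjusted p = 0.00208). In 24h_Giv_Cyt vs 24h_Giv_Ctrl, where 0.528% of all miRs were called, miR-93-5p was called lower at -0.38 (adjusted p = 0.00842), a call lost without replicate 1 of 24h_Giv_Cyt. There let-7c-5p had -0.15 (adjusted p = 0.562). Of the 12, 0 were called by limma in each of the other comparisons, where 0% to 0.792% of all miRs were. With the pooled correlation over spots none of these calls remained (limma adjusted p = 0.239 for let-7c-5p, 0.433 and 0.521 for miR-93-5p). Level differences between probes add to the spread in that fit, and their part in the loss was not tested. With slide as a fixed block neither call in 24h_Cyt vs 24h_Ctrl remained (log2FC -0.56, limma adjusted p = 0.448 for let-7c-5p, and -0.40, adjusted p = 0.377 for miR-93-5p). Leaving out slide 1 left 1 array of 24h_Cyt, assumed to vary like the other groups, and gave log2FCs of -0.33 and -0.29 (adjusted p = 0.320 and 0.290).

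The call of let-7c-5p was close to the threshold. It was lost when any array of 24h_Cyt, 24h_Ctrl or 6h_Cyt was left out, and without replicate 1 or 3 of 24h_Giv_Ctrl, replicate 2 or 3 of 24h_Giv_Cyt or replicate 2 of 6h_Ctrl, 14 of the 24 arrays in all. Over its 41 alternatives the adjusted p ran from 0.00462 to 0.448, and without normalization the log2FC was 0.62. The median log2FC of the 8 detected references was -0.026 in 24h_Cyt vs 24h_Ctrl against -0.055 for all detected miRs, and -0.12 against -0.017 in 24h_Giv_Cyt vs 24h_Giv_Ctrl.

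The wider group with the bases AGCAGC near the 5′ end, which shares targets with miR-103 and miR-107, gave no call either. Of its 6 miRs, miR-15b-5p, miR-16-5p, miR-195-5p and miR-497-5p were detected on all arrays and miR-322-5p and miR-503-5p on none. In the 12 comparisons 0 of the 6 were called, where 0% to 4.09% of all miRs were. For cytokines without Givinostat at 24 h the median log2FC of the 4 detected was 0.081, against -0.055 for all detected miRs, and with Givinostat it was -0.16 against -0.017. The passenger arms miR-103-1-5p, miR-103-2-5p and miR-107-5p were detected on no array.

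Part of the qRT-PCR of the study was scaled to the mean of miR-103 and miR-423 on a log scale, and other miR measurements to let-7c. The mean of miR-103 and miR-423 was also formed from the array values. With miR-423-3p it was lower in 24h_Cyt than in 24h_Ctrl by a difference of -0.068, with an SD between arrays of 0.036, and with miR-423-5p by -0.084 with an SD of 0.046. In 24h_Giv_Cyt vs 24h_Giv_Ctrl the difference was -0.10 with either arm (SD 0.064 and 0.083), or -0.055 and -0.038 without replicate 1 of 24h_Giv_Cyt, and in 24h_Giv_Ctrl vs 6h_Giv_Ctrl it was 0.14 with either (SD 0.056). A value expressed relative to this mean on the same array would shift by the same size with the opposite sign. The miR-423 term of this mean was at background. The qRT-PCR values themselves were not analysed here.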

How the data were processed

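The 24 one-colour Agilent rat miRNA arrays comprised 3 per group and lay on 4 slides, told apart by the barcode of each scan. The authors deposited 1 scanner file per array (Agilent Feature Extraction 10.7.3.1 per the file headers, 9.1 per the submitters' processing notes), with spot intensity on a linear scale, not normalized between arrays, and well-above-background and outlier marks (scored 0 or 1), and a table of quantile-normalized log2 values, the median over spots. Probe positions are on rn4; RefSeq sequences and gene positions are on GRCr8, and the builds were not mixed. 

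Median foreground intensity without background correction was freed of 434 negative and 281 positive control spots, quantile-normalized and log2-transformed, as in the paper's methods, and the 16 spots per miR were averaged. limma 3.58.1 in R 4.3.3 was fitted to all 24 arrays with 8 group means and 16 residual degrees of freedom, with Benjamini-Hochberg adjustment within each comparison. The pooled correlation over spots that the paper names was an alternative, because spots of an array share their RNA. It was fitted here without a term for the probe. On simulated data 99% of miRs changed by 1 and 98% of those changed by 0.5 (log2) were called, and 0 unchanged miRs. The 200 changed miRs were drawn from all 758, of which 534 were detected on no array. Such miRs had a lower spread, so these shares need not hold for detected miRs. Changes as small as those of miR-103-3p and miR-107-3p were not simulated. The members and lists were chosen with earlier results of these data known. Named miRs are the members, their passenger arms, let-7c-5p, the 2 detected miRs closest to each member, and the closest, lowest and highest of the fixed lists. Other list miRs and markers were named after their values were seen. Figures were drawn with matplotlib 3.10.9. Experiments of the study other than these arrays were left out.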

Additional observations from a re-analysis of the deposited data

How the results depend on the processing

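Over the 12 comparisons, 194 of 228 values of miR-103-3p under the alternatives, 201 of 228 of miR-107-3p, 175 of 204 of miR-423-3p and 170 of 207 of miR-423-5p kept their direction and call. The sign turned in 33, 27, 29 and 34 values, and in 13, 7, 0 and 3 of these the value before or after lay more than 0.1375 from 0. The sign of a member value near 0 is therefore not settled by these arrays. The pooled correlation, detected miRs alone, the replicate block, compared groups alone and no log2FC threshold leave each log2FC unchanged by design. No sign could turn under them, and their values are part of the counts above. Without slide 1, 24h_Cyt kept 1 array, assumed to vary like the other groups. The removal of spots marked as outliers was chosen after seeing the data, and values at the floor of a scaled setting were not used. The cause of each change was not tested, and brightness before normalization moved with 24h_Cyt. The precision is limited by 3 arrays per group.

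Members called rose from 0 to 1 (processed signal scaled to detected miRs) and 3 (no normalization) in 24h_Cyt vs 24h_Ctrl. Without normalization they also rose to 1 in 24h_Giv_Cyt vs 24h_Giv_Ctrl and 3 in 24h_Cyt vs 6h_Cyt. Each count without normalization includes miR-423-5p, which was detected on 1 of the 24 arrays. The median log2FC of the detected miRs was then 0.83, 0.43 and 0.69 in these comparisons. The share of all miRs called under these settings is not given, so the counts are not read as results about the members. The reference mean in 24h_Cyt vs 24h_Ctrl was 0.45 (with miR-423-3p) and 0.52 (with miR-423-5p) without normalization, and with miR-423-5p -0.20 (processed, all miRs) and -0.25 (total signal). Leaving out 1 array kept 0 to 0 members called in every comparison and gave the reference mean in 24h_Cyt vs 24h_Ctrl -0.092 to -0.052 with miR-423-3p and -0.11 to -0.058 with miR-423-5p.

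Without normalization between arrays the sign turned for miR-103-3p in 6h_Cyt vs 6h_Ctrl (0.17), 6h_Giv_Cyt vs 6h_Cyt (-0.12), 6h_Giv_Cyt vs 6h_Giv_Ctrl (-0.046), 6h_Giv_Ctrl vs 6h_Ctrl (0.095), 24h_Cyt vs 24h_Ctrl (0.83), 24h_Giv_Cyt vs 24h_Cyt (-0.47), 24h_Giv_Cyt vs 24h_Giv_Ctrl (0.23), 24h_Cyt vs 6h_Cyt (0.72), 24h_Giv_Cyt vs 6h_Giv_Cyt (0.36), the cytokine effect at 24 h less 6 h (0.67) and the Givinostat interaction at 6 h (-0.21), for miR-107-3p in 6h_Cyt vs 6h_Ctrl (0.12), 6h_Giv_Ctrl vs 6h_Ctrl (0.22), 24h_Cyt vs 24h_Ctrl (0.91), 24h_Giv_Cyt vs 24h_Giv_Ctrl (0.22), 24h_Giv_Ctrl vs 24h_Ctrl (0.20), 24h_Cyt vs 6h_Cyt (0.76), 24h_Giv_Cyt vs 6h_Giv_Cyt (0.32), 24h_Ctrl vs 6h_Ctrl (-0.031), 24h_Giv_Ctrl vs 6h_Giv_Ctrl (-0.051), the cytokine effect at 24 h less 6 h (0.79) and the Givinostat interaction at 6 h (-0.27), for miR-423-3p in 6h_Giv_Cyt vs 6h_Cyt (0.0048), 24h_Giv_Cyt vs 24h_Cyt (0.11), 24h_Giv_Ctrl vs 6h_Giv_Ctrl (-0.041) and the Givinostat interaction at 24 h (0.10), for miR-423-5p in 6h_Giv_Cyt vs 6h_Giv_Ctrl (-0.026), 24h_Giv_Cyt vs 24h_Cyt (0.061), 24h_Ctrl vs 6h_Ctrl (-0.0042), 24h_Giv_Ctrl vs 6h_Giv_Ctrl (-0.054), the Givinostat interaction at 6 h (-0.0060) and the Givinostat interaction at 24 h (0.040), for let-7c-5p in 24h_Cyt vs 24h_Ctrl (0.62) and 24h_Giv_Cyt vs 24h_Giv_Ctrl (0.21), and for miR-93-5p in 24h_Cyt vs 24h_Ctrl (0.64) and 24h_Giv_Cyt vs 24h_Giv_Ctrl (0.066).

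The median over spots and the deposited table, with the same values, turned it for miR-103-3p in 6h_Cyt vs 6h_Ctrl (0.0071), 6h_Giv_Cyt vs 6h_Cyt (-0.040), 24h_Giv_Ctrl vs 24h_Ctrl (-0.0068) and the Givinostat interaction at 24 h (0.050), for miR-423-3p in 6h_Cyt vs 6h_Ctrl (0.033) and 24h_Giv_Ctrl vs 6h_Giv_Ctrl (-0.0095), for miR-107-3p in 24h_Giv_Ctrl vs 24h_Ctrl (0.0067) and 24h_Ctrl vs 6h_Ctrl (-0.015), and for miR-423-5p in 24h_Giv_Cyt vs 6h_Giv_Cyt (-5.8e-07) and 24h_Ctrl vs 6h_Ctrl (-0.051). The mean foreground signal turned it for miR-423-3p in 6h_Giv_Ctrl vs 6h_Ctrl (-0.0036) and 24h_Giv_Ctrl vs 6h_Giv_Ctrl (-0.0011), and for miR-423-5p in 24h_Giv_Cyt vs 24h_Giv_Ctrl (-0.0077). Normexp correction turned it for miR-103-3p in 6h_Giv_Cyt vs 6h_Cyt (-0.0025), for miR-423-3p in 6h_Giv_Ctrl vs 6h_Ctrl (-0.0065) and 24h_Giv_Ctrl vs 6h_Giv_Ctrl (-0.00081), and for miR-423-5p in 24h_Giv_Cyt vs 24h_Giv_Ctrl (-0.011) and 24h_Giv_Cyt vs 6h_Giv_Cyt (-7.6e-05). The processed signal scaled over detected miRs turned it for miR-103-3p in 6h_Giv_Cyt vs 6h_Cyt (-0.023), 24h_Giv_Cyt vs 24h_Cyt (-0.012), 24h_Giv_Ctrl vs 24h_Ctrl (-0.18) and the Givinostat interaction at 24 h (0.17), for miR-107-3p in 6h_Giv_Cyt vs 6h_Cyt (0.060), 6h_Giv_Cyt vs 6h_Giv_Ctrl (0.13) and the Givinostat interaction at 24 h (0.013), and for miR-423-5p in 24h_Giv_Cyt vs 24h_Cyt (0.21), 24h_Giv_Ctrl vs 24h_Ctrl (-0.19), 24h_Giv_Ctrl vs 6h_Giv_Ctrl (-0.088) and the Givinostat interaction at 24 h (0.40). The same signal scaled over all miRs turned it for miR-103-3p in 6h_Giv_Cyt vs 6h_Cyt (-0.16), 24h_Giv_Cyt vs 24h_Cyt (-0.31) and 24h_Giv_Ctrl vs 24h_Ctrl (-0.0047), for miR-423-5p in 24h_Giv_Cyt vs 24h_Giv_Ctrl (-0.034) and 24h_Giv_Ctrl vs 24h_Ctrl (-0.014), and for miR-107-3p in 24h_Giv_Ctrl vs 24h_Ctrl (0.11). The total signal per miR turned it for miR-103-3p in 6h_Giv_Cyt vs 6h_Cyt (-0.039), 24h_Giv_Cyt vs 24h_Cyt (-0.010), 24h_Giv_Ctrl vs 24h_Ctrl (-0.18) and the Givinostat interaction at 24 h (0.17), for miR-107-3p in 6h_Giv_Cyt vs 6h_Cyt (0.046), 6h_Giv_Cyt vs 6h_Giv_Ctrl (0.13) and the Givinostat interaction at 24 h (0.025), and for miR-423-5p in 24h_Cyt vs 24h_Ctrl (-0.11) and 24h_Giv_Cyt vs 24h_Cyt (0.16).

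Slide as a fixed block turned it for miR-103-3p in 6h_Giv_Cyt vs 6h_Cyt (-0.17), 24h_Giv_Cyt vs 24h_Cyt (-0.039), 24h_Giv_Ctrl vs 24h_Ctrl (-0.060) and the Givinostat interaction at 24 h (0.021), for miR-423-3p in 6h_Giv_Cyt vs 6h_Cyt (0.0013), 24h_Giv_Cyt vs 24h_Cyt (0.0056) and the Givinostat interaction at 6 h (0.00048), for miR-423-5p in 24h_Cyt vs 24h_Ctrl (-0.025), 24h_Giv_Cyt vs 24h_Cyt (0.032), 24h_Giv_Ctrl vs 24h_Ctrl (-0.0024), the cytokine effect at 24 h less 6 h (-0.00044) and the Givinostat interaction at 24 h (0.034), and for miR-107-3p in 24h_Giv_Cyt vs 24h_Cyt (0.020), the Givinostat interaction at 6 h (-0.010) and the Givinostat interaction at 24 h (0.10). Slide as a random block turned it for miR-103-3p in 6h_Giv_Cyt vs 6h_Cyt (-0.022), and for miR-107-3p in the Givinostat interaction at 6 h (-0.0082). Leaving out slide 1 turned it for miR-107-3p in 6h_Giv_Cyt vs 6h_Giv_Ctrl (0.013), for miR-423-5p in 6h_Giv_Ctrl vs 6h_Ctrl (-0.0020), for miR-103-3p in 24h_Giv_Cyt vs 24h_Cyt (-0.048), and for miR-423-3p in 24h_Giv_Cyt vs 24h_Cyt (0.020). Leaving out spots marked as outliers turned it for miR-107-3p in 6h_Giv_Ctrl vs 6h_Ctrl (0.051), 24h_Giv_Ctrl vs 6h_Giv_Ctrl (-0.15), the Givinostat interaction at 6 h (-0.12) and the Givinostat interaction at 24 h (0.080), for miR-423-5p in 6h_Giv_Ctrl vs 6h_Ctrl (-0.0019), 24h_Giv_Ctrl vs 24h_Ctrl (-0.053), 24h_Giv_Cyt vs 6h_Giv_Cyt (-0.010), 24h_Giv_Ctrl vs 6h_Giv_Ctrl (-0.044) and the Givinostat interaction at 24 h (0.041), for miR-423-3p in 24h_Giv_Ctrl vs 6h_Giv_Ctrl (-0.0032), and for miR-103-3p in the Givinostat interaction at 24 h (0.026).

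The 11-base probe alone turned it for miR-423-3p in 6h_Cyt vs 6h_Ctrl (0.016), 24h_Giv_Cyt vs 24h_Cyt (0.012) and 24h_Giv_Cyt vs 24h_Giv_Ctrl (-0.0024). The 14-base probe alone turned it for miR-423-3p in 6h_Cyt vs 6h_Ctrl (0.064), 24h_Giv_Ctrl vs 24h_Ctrl (-0.036), 24h_Ctrl vs 6h_Ctrl (0.053), 24h_Giv_Ctrl vs 6h_Giv_Ctrl (-0.025), the cytokine effect at 24 h less 6 h (-0.024) and the Givinostat interaction at 24 h (0.00049). The 18-base probe alone turned it for miR-103-3p in 6h_Giv_Cyt vs 6h_Cyt (-0.010) and 24h_Giv_Cyt vs 24h_Cyt (-0.075). The 20-base probe alone turned it for miR-107-3p in 6h_Giv_Cyt vs 6h_Cyt (0.016), 6h_Giv_Ctrl vs 6h_Ctrl (0.033), 24h_Cyt vs 6h_Cyt (0.029), 24h_Ctrl vs 6h_Ctrl (-0.0028), 24h_Giv_Ctrl vs 6h_Giv_Ctrl (-0.040), the cytokine effect at 24 h less 6 h (0.032) and the Givinostat interaction at 6 h (-0.016). The 12-base probe alone turned it for miR-423-3p in 6h_Giv_Cyt vs 6h_Cyt (0.066), 24h_Giv_Cyt vs 24h_Cyt (0.0059), 24h_Giv_Cyt vs 24h_Giv_Ctrl (-0.011), 24h_Giv_Ctrl vs 6h_Giv_Ctrl (-0.0028) and the Givinostat interaction at 6 h (0.020). The 16-base probe alone turned it for miR-423-5p in 6h_Giv_Cyt vs 6h_Giv_Ctrl (-0.016), 6h_Giv_Ctrl vs 6h_Ctrl (-0.0038), 24h_Ctrl vs 6h_Ctrl (-0.051) and 24h_Giv_Ctrl vs 6h_Giv_Ctrl (-0.021). The 13-base probe alone turned it for miR-423-3p in 6h_Giv_Ctrl vs 6h_Ctrl (-0.034), 24h_Giv_Cyt vs 24h_Giv_Ctrl (-0.016), 24h_Giv_Ctrl vs 6h_Giv_Ctrl (-0.0021) and the Givinostat interaction at 6 h (0.011). The 17-base probe alone turned it for miR-423-5p in 24h_Cyt vs 24h_Ctrl (-0.030), 24h_Giv_Cyt vs 24h_Giv_Ctrl (-0.026), 24h_Giv_Ctrl vs 24h_Ctrl (-0.0078), 24h_Giv_Cyt vs 6h_Giv_Cyt (-0.0070), the cytokine effect at 24 h less 6 h (-0.018) and the Givinostat interaction at 24 h (0.0038), and for miR-103-3p in 24h_Giv_Ctrl vs 24h_Ctrl (-0.00037) and the Givinostat interaction at 24 h (0.091).

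Leaving out 1 array gave ranges that cross 0 for miR-103-3p in 6h_Cyt vs 6h_Ctrl (-0.097 to 0.054), 6h_Giv_Cyt vs 6h_Cyt (-0.085 to 0.14), 24h_Giv_Cyt vs 24h_Cyt (-0.051 to 0.11), 24h_Giv_Ctrl vs 24h_Ctrl (-0.026 to 0.062), 24h_Giv_Cyt vs 6h_Giv_Cyt (-0.23 to 0.0052), 24h_Ctrl vs 6h_Ctrl (-0.012 to 0.12) and the Givinostat interaction at 24 h (-0.081 to 0.079), for miR-107-3p in 6h_Giv_Cyt vs 6h_Cyt (-0.096 to 0.059), 6h_Giv_Cyt vs 6h_Giv_Ctrl (-0.16 to 0.013), 6h_Giv_Ctrl vs 6h_Ctrl (-0.13 to 0.042), 24h_Giv_Ctrl vs 24h_Ctrl (-0.087 to 0.031), 24h_Ctrl vs 6h_Ctrl (-0.034 to 0.090), 24h_Giv_Ctrl vs 6h_Giv_Ctrl (-0.040 to 0.14) and the Givinostat interaction at 6 h (-0.068 to 0.11), for miR-423-3p in 6h_Giv_Cyt vs 6h_Cyt (-0.013 to 0.0086), 24h_Giv_Cyt vs 24h_Giv_Ctrl (-0.010 to 0.020) and 24h_Giv_Ctrl vs 6h_Giv_Ctrl (-0.015 to 0.015), and for miR-423-5p in 6h_Giv_Cyt vs 6h_Giv_Ctrl (-0.011 to 0.011), 6h_Giv_Ctrl vs 6h_Ctrl (-0.0020 to 0.018), 24h_Giv_Cyt vs 24h_Cyt (-0.027 to 0.022), 24h_Giv_Cyt vs 24h_Giv_Ctrl (-0.016 to 0.033), 24h_Giv_Ctrl vs 24h_Ctrl (-7.7e-05 to 0.016), 24h_Giv_Cyt vs 6h_Giv_Cyt (-0.0089 to 0.040), 24h_Ctrl vs 6h_Ctrl (-0.0014 to 0.016), 24h_Giv_Ctrl vs 6h_Giv_Ctrl (-0.0018 to 0.018) and the Givinostat interaction at 24 h (-0.036 to 0.013).

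With the replicate block, which cannot change a log2FC in this design, miR-103-3p had -0.19 in 24h_Cyt vs 24h_Ctrl (limma adjusted p = 0.341). With this block 0 members were called. Same-numbered arrays deviated together in every pair in 2 of the 12 comparisons, so the numbers were not taken as pairs.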
